A study of Homo sapiens with 5 samples.

Results

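The ChIP-seq peaks of Nrf2 and HIF1α were examined at 9 genes of NF-κB signaling and airway inflammation, which are the cytokine genes IL6, CXCL8, IL1A and IL1B, the NF-κB subunit genes RELA and NFKB1, the feedback inhibitor genes NFKBIA and TNFAIP3, and PTGS2. The genes were taken by name from the 20163 protein-coding genes of GENCODE on hg19, and every peak that touched the gene body or the 50 kb on either side of it was counted. Chromatin came from BEAS-2B, an immortalized line of human bronchial epithelial cells, which was starved of serum overnight and then kept for 6 h without arsenic (control) or with 1 μM inorganic arsenic (iAs). Each of the 2 antibodies gave 1 library per condition, so 4 libraries are compared and none of the values has a replicate check. Per the labels, the antibodies were of Santa Cruz (Nrf2) and Abcam (HIF1α), whereas the methods name Active Motif for ChIP.

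NF-κB is a family of transcription factors that is held in the cytoplasm by IκB proteins. When cytokines, microbial products or stress activate the IκB kinases, IκB is degraded, the RELA and NFKB1 subunits enter the nucleus, and they bind κB sites at genes of cytokines, chemokines and their own inhibitors. In bronchial epithelium this response attracts neutrophils and raises interleukins and prostaglandins. Nrf2 with a small MAF partner is known to bind the antioxidant response element (ARE), HIF1α with ARNT the hypoxia response element (HRE), and the AP-1 factors, which act together with NF-κB at many cytokine genes, a site that overlaps in sequence with the ARE.

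The lists hold 3204 and 7743 Nrf2 peaks and 6008 and 12826 HIF1α peaks, without and with iAs. The intervals carry no height or score, the read depth is unknown, and a peak that is absent from a list may lie just under the threshold of the caller. The peaks were therefore compared by presence, position and width, and no difference between conditions was tested.

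Nrf2 peaks lay near the 4 cytokine genes and NFKBIA, and HIF1α peaks nearest to a member's own TSS lay at RELA, NFKBIA and TNFAIP3. In control cells, 3 of the 9 genes (IL6, CXCL8 and NFKBIA) had an Nrf2 peak within 50 kb, where 20.0% of all protein-coding genes had one (95% Wilson confidence interval 19.4 to 20.5%, counting error only). With iAs, IL1A and IL1B joined them, which made 5 of the 9, against 35.0% of all genes (34.3 to 35.7%). HIF1α had a peak near RELA and NFKBIA in control cells, 2 of the 9 against 45.5% of all genes (44.8 to 46.2%). With iAs, HIF1α peaks lay near RELA, NFKBIA, TNFAIP3 and IL1A, 4 of the 9, against 68.6% of all genes. NFKB1 and PTGS2 had no peak of any library in their windows, as had 24.3% of all genes. Within 1 kb of the TSS, Nrf2 had a peak at 1 of the 9 genes in control cells (IL6) and at 2 with iAs (IL6 and CXCL8), against 2.32% and 5.17% of all genes. HIF1α had one there at 1 gene in control cells (NFKBIA) and at 3 with iAs (RELA, NFKBIA and TNFAIP3), against 16.7% and 42.6%. With only 9 genes in the list, a count above or below the share of all genes is a description of these loci.

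In total, 25 peaks fell in the windows of the 9 genes, 3 and 7 of Nrf2 and 4 and 11 of HIF1α, without and with iAs. The windows of IL1A and IL1B overlap, and their shared peaks were counted once. The 3 Nrf2 and the 4 HIF1α control peaks in the windows all overlapped a peak of the same factor with iAs. Over the whole lists, 94.6% of the Nrf2 control peaks and 53.7% of the HIF1α control peaks did. With so few peaks, this is a description of these loci. Conversely, 4 of the 7 Nrf2 intervals of treated cells had no overlap with the control list, as was the case for 62.0% of the Nrf2 peaks of treated cells in the genome. For HIF1α these were 7 of the 11, against 75.2%. Both shares were thus near those of the whole lists. Counted by gene, such a peak lay near 4 of the 9 for Nrf2 (IL6, CXCL8, IL1A and IL1B), against 25.4% of all genes, and near 3 of the 9 for HIF1α (IL1A, RELA and TNFAIP3), against 59.6%. The start site of another gene was the nearest for 5 of the 11 HIF1α peaks with iAs and 2 of the 4 in control cells, but for none of the Nrf2 peaks.

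**Figure D1:**
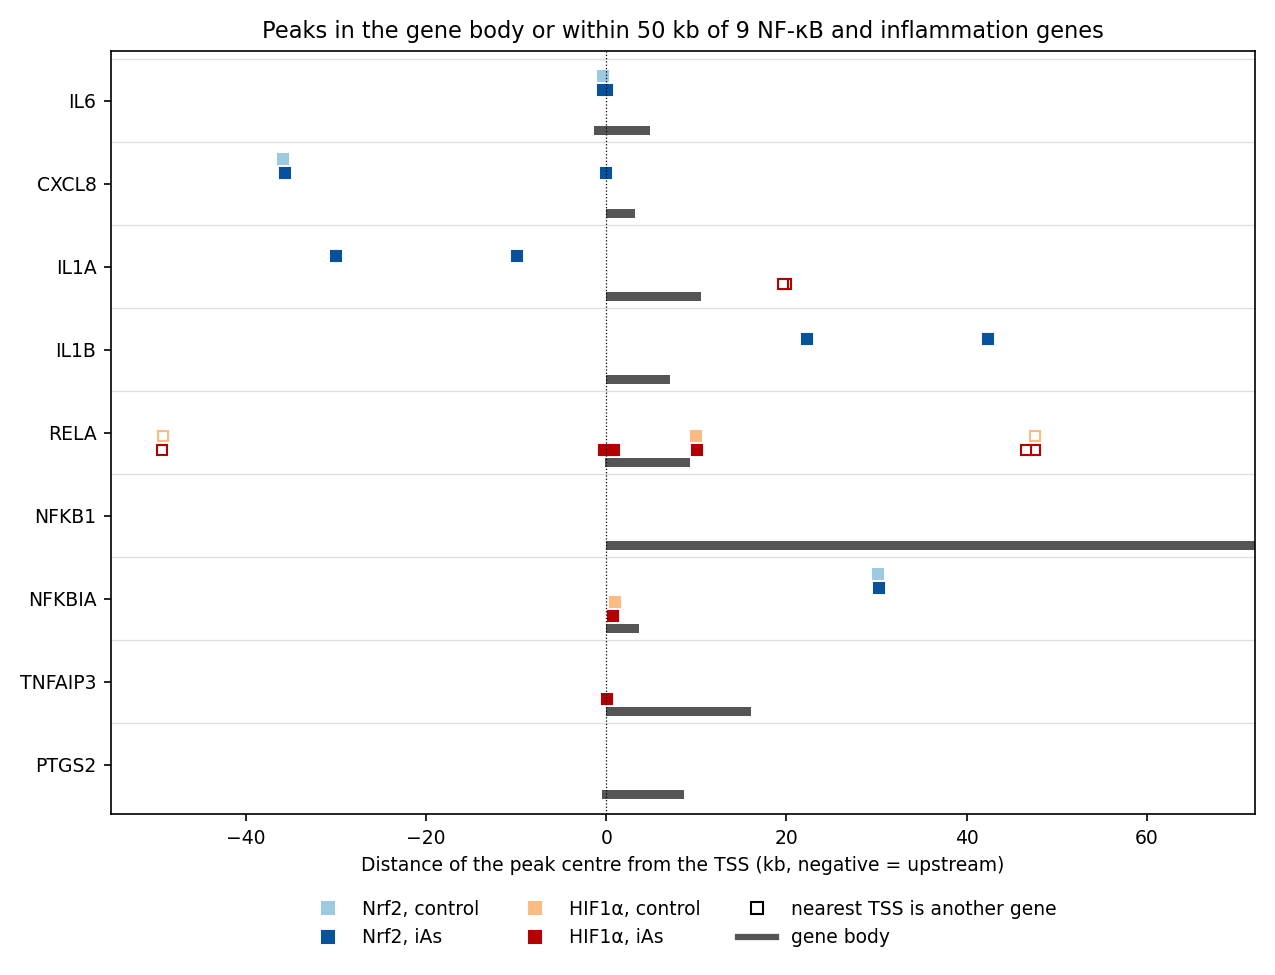
Peaks of the 4 libraries around the 9 genes, plotted as the distance of the peak centre from the TSS in kb along the direction of transcription. Filled squares are peaks whose nearest protein-coding TSS belongs to one of the 9 genes, open squares peaks nearest to another gene, and grey bars the gene bodies (that of NFKB1 runs past the right edge, with no peak in its window). Nrf2 squares lie at IL6, CXCL8, IL1A, IL1B and NFKBIA, and HIF1α squares at RELA, NFKBIA, TNFAIP3 and downstream of IL1A.

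IL6 (chr7:22765503-22771621, plus strand) encodes interleukin 6, a cytokine of the acute-phase response, and was the only member with an Nrf2 peak within 1 kb of the TSS in both conditions. In control cells, the Nrf2 peak (chr7:22766280-22766639, 360 bp) reached from -539 to -180 bp from the TSS. With iAs, the peak at this position was 659 bp wide (chr7:22766072-22766730) and reached from -747 to -89 bp. A second Nrf2 peak of 250 bp (chr7:22766815-22767064) was called with iAs only and covered the TSS, from -4 to 245 bp, with its centre in intron 1. The 2 peaks with iAs thus stood on both sides of the promoter κB site of IL6, which lies at -73 to -64 bp and in neither interval. When intervals less than 500 bp apart were merged, these 2 became 1 interval that holds the κB site and overlaps the control peak. The separate peak over the TSS therefore depends on how close intervals are treated. Both intervals as called also fall in the annotated spans of STEAP1B and of the antisense transcript IL6-AS1. No HIF1α peak lay in the window of IL6 in either condition.

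CXCL8 (chr4:74606236-74609433, plus strand) encodes interleukin 8, the main neutrophil attractant released by bronchial epithelium. In control cells, its window held 1 Nrf2 peak, in intergenic sequence at -35.9 kb from the TSS (chr4:74570238-74570613, 376 bp). With iAs, an Nrf2 peak of 866 bp was called there (chr4:74570142-74571007), which is wider than 90.9% of the Nrf2 peaks of that library. A further Nrf2 peak of 340 bp was found with iAs only and lay over the TSS (chr4:74606086-74606425), from -200 to 139 bp. The TSS of CXCL8 was thus covered by a called peak only in the Nrf2 library with iAs. The nearest HIF1α peaks were at 418 kb from the TSS with iAs and at -1370 kb in control cells.

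The sequences below show the centre of the Nrf2 control peaks at IL6, CXCL8 and NFKBIA, the 3 positions where Nrf2 was called in both conditions, and the part of the CXCL8 start site peak that lies before the gene. Each stretch is printed 5′ to 3′ on the strand of the gene, from hg19, and capitals mark the AP-1 site TGACTCA, read on either strand, and the ARE core TGACNNNGC, which contains the AP-1 site where TGACTCA is followed by GC.
IL6, chr7:22766359-22766559, plus strand: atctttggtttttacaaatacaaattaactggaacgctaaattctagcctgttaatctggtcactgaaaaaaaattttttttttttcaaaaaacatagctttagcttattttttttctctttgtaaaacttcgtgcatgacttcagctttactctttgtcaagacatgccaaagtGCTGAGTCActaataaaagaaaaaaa
CXCL8 distal, chr4:74570325-74570525, plus strand: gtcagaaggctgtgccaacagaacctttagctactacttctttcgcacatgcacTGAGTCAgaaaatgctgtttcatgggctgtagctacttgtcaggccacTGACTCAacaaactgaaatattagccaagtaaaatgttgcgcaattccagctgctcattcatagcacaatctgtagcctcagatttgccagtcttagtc
NFKBIA distal, chr14:35843640-35843840, minus strand: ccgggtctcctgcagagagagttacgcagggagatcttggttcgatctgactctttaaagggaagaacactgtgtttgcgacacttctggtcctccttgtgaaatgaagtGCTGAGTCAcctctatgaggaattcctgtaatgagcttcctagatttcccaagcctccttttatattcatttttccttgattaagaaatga
CXCL8 start site, chr4:74606086-74606235, plus strand: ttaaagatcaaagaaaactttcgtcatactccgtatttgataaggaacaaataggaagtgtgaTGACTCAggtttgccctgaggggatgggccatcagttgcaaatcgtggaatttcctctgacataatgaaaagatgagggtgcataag

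The same 9 letters, GCTGAGTCA, stood in the IL6 peak at -285 to -277 bp and in the NFKBIA peak at 30225 to 30233 bp from the TSS. They hold both the ARE core and the AP-1 site. The distal CXCL8 peak held 2 AP-1 sites, at -35907 to -35901 and -35859 to -35853 bp, and no ARE core. In the peak over the CXCL8 TSS, 1 AP-1 site lay at -137 to -131 bp. A match is a description of the letters and does not show that the factor was bound at them.

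**Figure D2:**
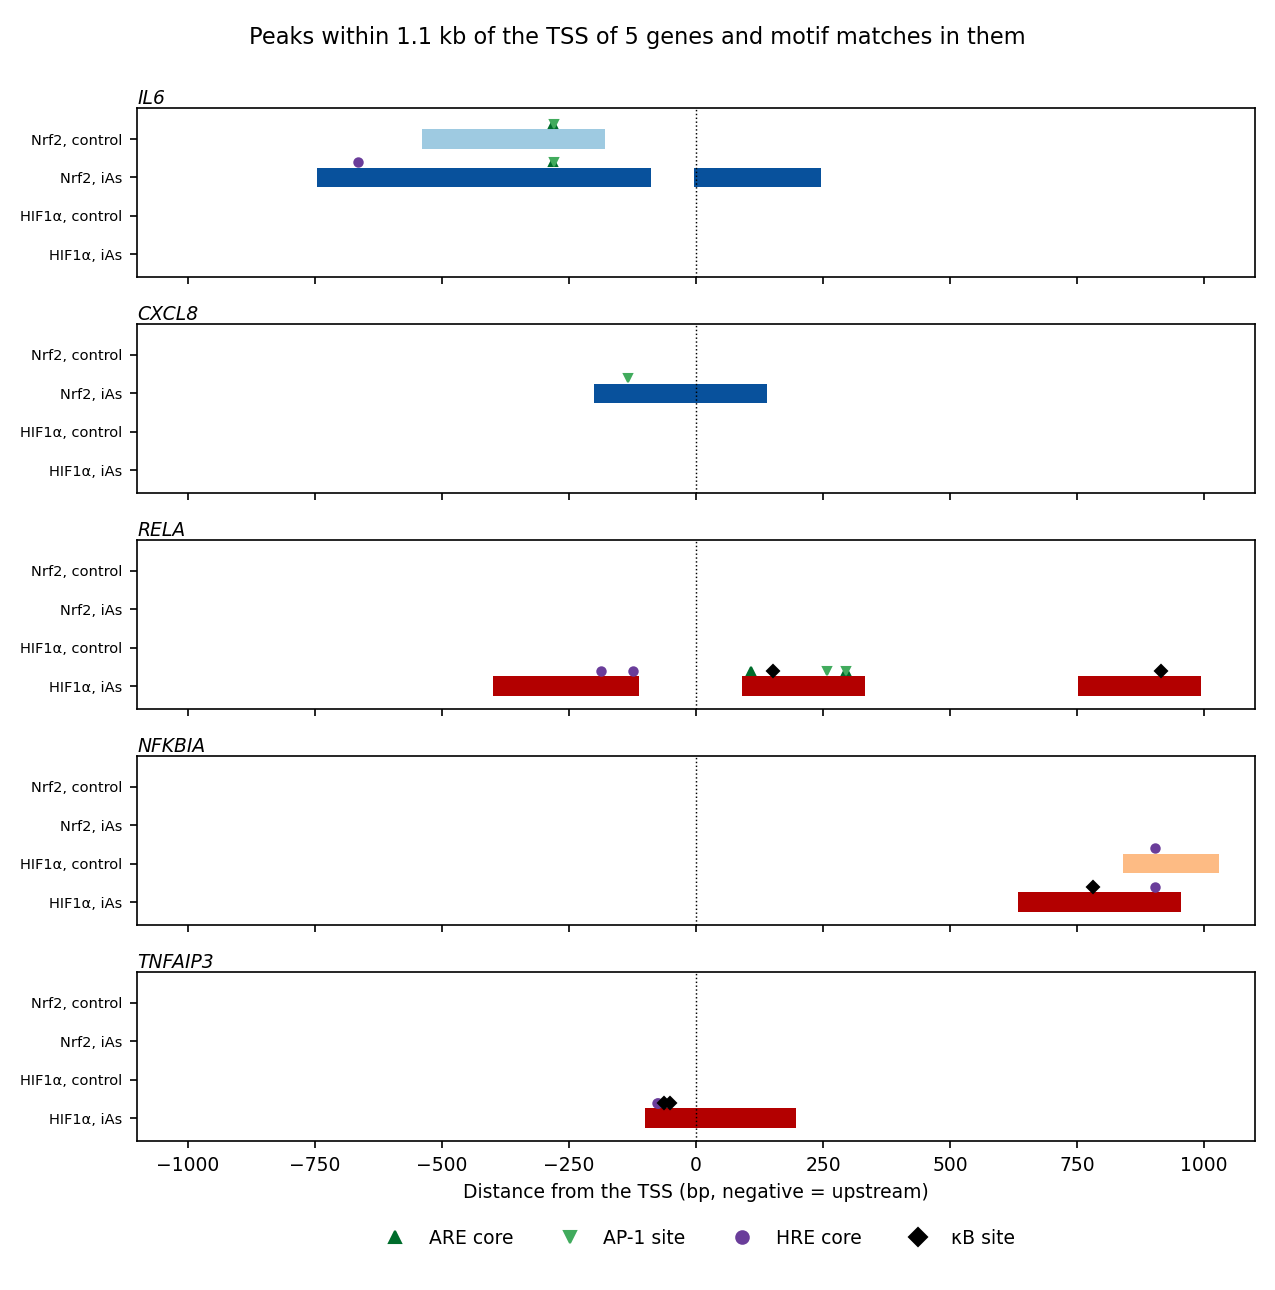
Peaks within 1.1 kb of the TSS at the 5 genes that had one, with the distance from the TSS in bp on the horizontal axis and 1 row per library. Bars are the peak intervals, and symbols above a bar mark the ARE core, AP-1, HRE core and κB matches in the whole peak. Blue bars (Nrf2) are present at IL6 and CXCL8 only, and red and orange bars (HIF1α) at RELA, NFKBIA and TNFAIP3 only.

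IL1A (chr2:113531502-113542070) and IL1B (chr2:113587328-113594393) encode the interleukins 1α and 1β, which are released early in epithelial injury, and lie next to each other on the minus strand. Neither gene had a peak in control cells within 50 kb. With iAs, 2 Nrf2 peaks were called in the intergenic sequence upstream of IL1A and downstream of IL1B. The first (chr2:113551774-113552112, 339 bp) lay at -9.87 kb from the TSS of IL1A and 42.4 kb from that of IL1B. The second (chr2:113571920-113572142, 223 bp) lay at -30.0 kb from IL1A and 22.3 kb from IL1B, beyond its 3′ end. Neither of these 2 peaks held an ARE core or an AP-1 site, and neither IL1 promoter was covered by a peak. The second was the only Nrf2 peak in the windows with a match to the κB consensus searched here, which has GGG at one end and CC at the other. The known κB element of the CXCL8 promoter departs from this consensus and was not counted, although the CXCL8 start site sequence holds it. The match at IL1B is shown in capitals in the 201 bp around the peak centre on the minus strand, the strand of both genes.
IL1B distal, chr2:113571931-113572131, minus strand: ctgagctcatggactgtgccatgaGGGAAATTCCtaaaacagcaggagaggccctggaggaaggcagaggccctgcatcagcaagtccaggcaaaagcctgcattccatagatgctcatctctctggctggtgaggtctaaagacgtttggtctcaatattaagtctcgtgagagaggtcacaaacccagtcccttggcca

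HIF1α had 2 narrow peaks with iAs in the window of IL1A, of 188 bp and 242 bp (chr2:113522013-113522200 and chr2:113522311-113522552). They lay at 80 and 245 bp from the TSS of CKAP2L and at 20.0 and 19.6 kb downstream of the TSS of IL1A. These peaks stood at the start of the neighboring gene, and no HIF1α peak in the windows had an IL1 gene as its nearest.

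NFKBIA (chr14:35870285-35873955, minus strand) encodes IκBα, which NF-κB induces and which then returns NF-κB to the cytoplasm, and was the only member with peaks of both factors nearest to its own TSS. The Nrf2 peak lay 30.2 kb downstream of the TSS, past the end of the gene, with a width of 281 bp without arsenic (chr14:35843600-35843880) and of 515 bp after iAs (chr14:35843449-35843963). The HIF1α peak had its centre in intron 1 of the canonical transcript. Another annotated start of NFKBIA lay 35 bp from this centre in control cells and 176 bp with iAs. The HIF1α peak spanned 190 bp in control cells (chr14:35872926-35873115) and, after treatment, 320 bp (chr14:35873002-35873321). With iAs it reached from 634 to 953 bp from the TSS, against 840 to 1029 bp in control cells. The wider interval took in a κB site at 777 to 786 bp, which the control interval did not hold. The gap between the Nrf2 and the HIF1α peak was 29.0 kb in both conditions.

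TNFAIP3 (chr6:138188351-138204451, plus strand) encodes A20, a ubiquitin-editing enzyme that shuts off NF-κB signaling. Its window held 1 peak, of HIF1α with iAs (chr6:138188295-138188592, 298 bp), which covered the TSS from -101 to 196 bp. In control cells, the nearest HIF1α peak was 1510 kb from the TSS, and no Nrf2 peak lay within 100 kb in either condition. The peak held 2 κB sites side by side, at -67 to -58 and -55 to -46 bp, and 1 palindromic HRE core that is read on both strands, at -78 to -73 bp. The antisense transcript WAKMAR2 overlaps the same interval.

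RELA (chr11:65421070-65430561, minus strand) encodes the p65 subunit, which carries the activation domain of NF-κB, and had the most peaks of the 9 genes, all of them of HIF1α. In control cells, 1 HIF1α peak lay just past the 3′ end of the gene, at 9.93 kb from the TSS (chr11:65420297-65420618, 322 bp). It was also called with iAs, at 10.1 kb (chr11:65420183-65420448, 266 bp). With iAs, 3 further HIF1α peaks surrounded the TSS, of which none overlapped a control peak. The first lay upstream, at -400 to -113 bp (chr11:65430500-65430787, 288 bp). The second had its centre in intron 1, at 90 to 332 bp (chr11:65430055-65430297, 243 bp), and the third had its centre in exon 3, at 753 to 994 bp (chr11:65429393-65429634, 242 bp). The TSS of the canonical transcript lay between the first and the second. The first covered another annotated start of RELA, 82 bp from its centre, and also overlaps the divergent transcript RELA-DT. Another 2 control peaks and 3 peaks with iAs were at the edges of the window, nearest to the starts of PCNX3 and KAT5. Near PCNX3, the control peak and the peak with iAs that overlapped it fell in the gene body of MAP3K11. The closest Nrf2 peaks to RELA were at 170 kb (control) and 165 kb (iAs) from its TSS.

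Of the matches under the HIF1α peaks with iAs, the κB sites at the inhibitor genes, the HRE core of TNFAIP3 and 1 ARE core of RELA are given with their letters. Capitals mark the HRE core and the κB sites of TNFAIP3, the κB site of NFKBIA with 10 bases on each side, and the ARE core of RELA at 292 to 300 bp with 10 bases on each side. A second ARE core of RELA, at 105 to 113 bp, and its κB matches, at 148 to 157, 910 to 919 and 9984 to 9993 bp, are given by position only.
TNFAIP3 before the gene, chr6:138188295-138188350, plus strand: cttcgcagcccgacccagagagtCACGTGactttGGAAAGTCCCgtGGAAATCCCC
NFKBIA intron 1, chr14:35873159-35873188, minus strand: ggaggggggcGGAAAGTCCCtgggcgcctg
RELA intron 1, chr11:65430077-65430105, minus strand: gggtggccctTGACTCAGCatcctccctg

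NFKB1 (chr4:103422487-103538459, plus strand), which encodes the p105 precursor of the p50 subunit, had no peak of either factor over its gene body or within 50 kb, although it is the longest of the 9 genes (116 kb). PTGS2 (chr1:186640923-186650054, minus strand) encodes cyclooxygenase 2, the inducible enzyme of prostaglandin synthesis. It was the member farthest from any Nrf2 peak, with the nearest at 707 kb from its TSS in both libraries. The nearest HIF1α peaks of PTGS2 were at 946 kb in control cells and 305 kb with iAs.

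Widths were compared where a control peak and a peak with iAs overlapped, at 3 positions for Nrf2 and 4 for HIF1α. The Nrf2 peaks were wider with iAs at all 3 positions, by 1.83 times at IL6, 2.30 times at CXCL8 and 1.83 times at NFKBIA. Over all 2833 such Nrf2 pairs in the genome, 91.7% were wider with iAs and the median ratio was 1.63, so these 3 went with the rest of the list. Of the 4 HIF1α pairs, only that at NFKBIA was wider with iAs, by 1.68 times. The other HIF1α pairs, which lay past the 3′ end of RELA and near the starts of PCNX3 and KAT5, were narrower with iAs, at 0.826 to 0.899 of the control width. Over all 3045 HIF1α pairs, 76.7% were wider with iAs, with a median ratio of 1.44.

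The HIF1α peaks with iAs in these windows were narrow for their library, while 2 of the 4 in control cells exceeded the median of all HIF1α control peaks (276 bp). Among the 11 with iAs, only the peak at KAT5 (434 bp) exceeded the median of all HIF1α peaks with iAs (340 bp), and the widest at a member was that of NFKBIA with 320 bp. For Nrf2, 5 of the 7 peaks with iAs exceeded the median of their library (333 bp). When only as many of the widest peaks were kept with iAs as in control cells, 0 of the 4 Nrf2 peaks and 0 of the 7 HIF1α peaks found only with iAs remained. The calls over or beside the TSS of CXCL8, TNFAIP3 and RELA, and the second peak at IL6, were thus not among the widest of their lists.

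**Figure D3:**
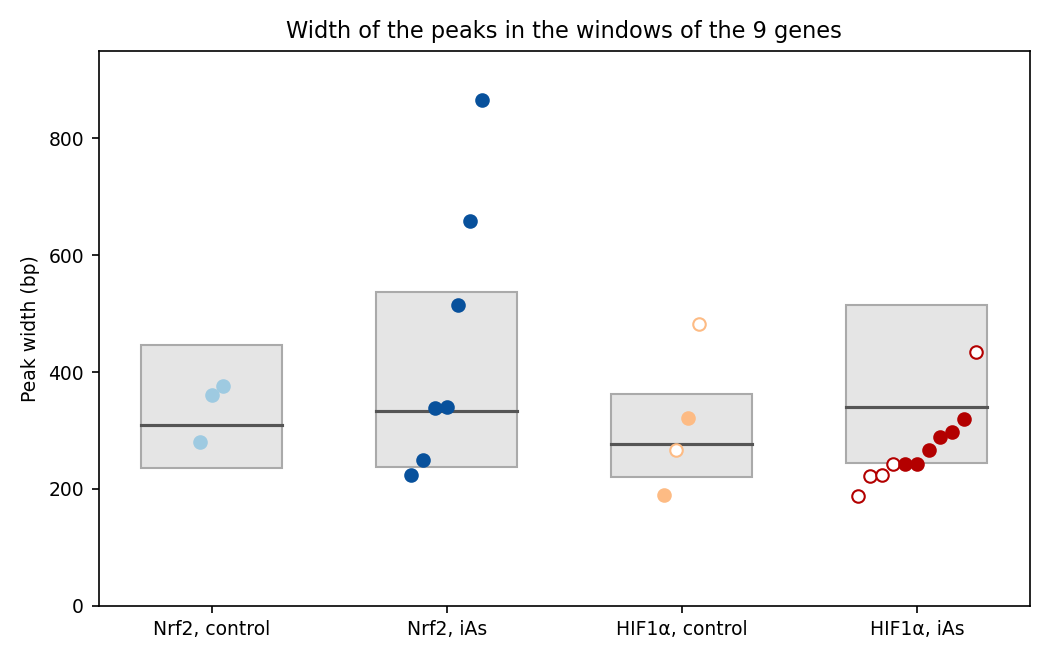
Width in bp of each peak in the windows of the 9 genes, by library. Grey boxes span the quartiles of all peaks of the library with the median as a line, filled circles are peaks nearest to the TSS of one of the 9 genes and open circles peaks nearest to another gene. The Nrf2 circles with iAs reach 866 bp, while 10 of the 11 HIF1α circles with iAs lie below the median of 340 bp.

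Nrf2 and HIF1α were not called at the same place at any of the 9 genes. None of the 7 Nrf2 peaks with iAs overlapped a HIF1α peak with iAs, where 14.7% of all Nrf2 peaks with iAs did, and the gap to the nearest one was 29.0 to 445 kb. In control cells, none of the 3 Nrf2 peaks overlapped a HIF1α peak, against 27.7% of all. With only 7 and 3 peaks, these counts were not tested against the shares of all and are a description of these loci. The peaks of the 9 windows fell into 18 of the authors' 21088 merged regions. Of these, 4 regions held Nrf2 with iAs only, 3 held Nrf2 in both conditions, 7 held HIF1α with iAs only and 4 held HIF1α in both conditions.

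Both strands of the 201 bp centred on each peak were then searched for motifs. All 3 Nrf2 control peaks held the AP-1 site, as did 47.8% of the Nrf2 control peaks in the genome, and 2 of the 3 held the ARE core, against 42.4%. None of the 3 held the HRE core or the κB site, which were present in 24.9% and 5.43% of all. With iAs, the window held the AP-1 site in 1 of 7 Nrf2 peaks (38.3% of all) and the ARE core in 1 of 7 (31.6% of all). The HRE core and the κB site were each found in 1 of the 7, at IL1A and IL1B, against 26.0% and 5.61%. In the whole intervals of these 7 peaks, the AP-1 site was found in 4 and the ARE core in 2, against 51.5% and 44.2% of all whole intervals of that library. The sites at IL6 and in both CXCL8 peaks lie more than 100 bp from the peak centres. The HRE core, searched as ACGTG and GCGTG, was present in 3 of the 4 HIF1α control peaks and in 3 of the 11 with iAs, against 47.7% and 52.4% of all HIF1α peaks. In the whole intervals it was found in 4 of the 4 and 6 of the 11, against 58.5% and 71.6% of all whole intervals. The κB consensus of 10 letters was matched around the centre of 5 of the 11 HIF1α peaks with iAs (3 of them at RELA, 1 at NFKBIA and 1 at CKAP2L), where 12.6% of all HIF1α peaks with iAs held it. It was also in 1 of the 4 control peaks, that past the 3′ end of RELA, against 7.22%. At TNFAIP3 the κB sites lay in the peak but outside this window. The ARE core and the AP-1 site were in none of the 4 HIF1α control peaks (12.8% and 14.5% of all) and in 1 of the 11 with iAs, that in intron 1 of RELA (10.1% and 2.39% of all).

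The promoters, taken from 250 bp before the TSS to 50 bp after it, were also compared by base composition. With 77.0%, 73.7% and 62.0% GC, RELA, TNFAIP3 and NFKBIA, which had a HIF1α peak within 1 kb of the TSS, held 48, 35 and 22 CpG. The promoters of CXCL8 and IL6, which had an Nrf2 peak there, had 39.3% and 49.3% GC and held 4 and 7 CpG. By comparison, the median was 68.7% GC over the 8581 promoters with a HIF1α peak with iAs within 1 kb, 65.3% over the 1043 with an Nrf2 peak with iAs, and 63.7% over all promoters. CXCL8 and IL6 were therefore poor in GC for promoters with an Nrf2 peak. NFKBIA lay below the median of all promoters. Low GC was not particular to the genes with an Nrf2 peak, because IL1A, IL1B and PTGS2 had 39.7%, 42.3% and 50.7% GC and no peak within 1 kb of the TSS. NFKB1 had a GC-rich promoter (71.3%, 35 CpG) with no peak. The κB consensus was matched in the promoters of 4 of the 9 genes (IL6, NFKB1, NFKBIA and TNFAIP3), against 12.6% of all promoters, and only that of TNFAIP3 lay in a called peak.

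A list of 55 further genes of the pathway was read in the same way. Nrf2 peaks lay within 50 kb of 23 of them in control cells (41.8%) and of 33 with iAs (60.0%), against 20.0% and 35.0% of all genes. HIF1α peaks lay near 28 (50.9%) and 38 (69.1%), against 45.5% and 68.6%. Within 1 kb of the TSS, the counts were 2 and 4 for Nrf2, against 2.32% and 5.17% of all genes, and 8 and 23 for HIF1α (14.5% and 41.8%), against 16.7% and 42.6%. The share of the list was thus above that of all genes for Nrf2 peaks within 50 kb, and near it for HIF1α peaks and for peaks at the TSS. Neighboring genes of the list can share a peak, and gene windows differ in length, so these shares are descriptions.

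By group, the HIF1α peaks with iAs within 1 kb of the TSS are read beside the 42.6% of all genes that had one, and differences between the groups were not tested. Where a gene had more than 1 such peak, the width of the widest is given. Of the 20 further targets of NF-κB, 1 had an Nrf2 peak with iAs within 1 kb of the TSS and 2 a HIF1α peak (10%). The first was CCL2, a monocyte attractant, whose Nrf2 peak spanned 189 bp in control cells and, after treatment, 416 bp, while a HIF1α peak (245 bp) was called there in control cells only. The others were ICAM1, an adhesion molecule for leukocytes (490 bp), and SOD2, the mitochondrial superoxide dismutase (374 bp), both with iAs only. Among the 9 kinases, 6 (66.7%) had a HIF1α peak with iAs there, led by TBK1 (685 bp), RIPK1 (634 bp) and MAP3K14 (405 bp), none of which overlapped a control peak. TBK1 also had 2 Nrf2 peaks with iAs, of 407 and 612 bp, and the first overlapped its HIF1α peak. At IKBKG, another of the kinases, an Nrf2 peak (181 bp) and a HIF1α peak (212 bp) with iAs overlapped as well.

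Among the 12 adaptors and receptors, 8 (66.7%) carried a HIF1α peak near the TSS in iAs-treated cells, against the same 42.6% of all genes. The widest were at IL6R (810 bp) and IL6ST (703 bp), which together form the receptor for interleukin 6, and at TRAF6 (571 bp), an adaptor of the interleukin 1 receptor. IL6R also had an Nrf2 peak there, which grew from 201 bp in control cells to 739 bp. With iAs this Nrf2 peak lay inside the HIF1α peak. The brakes of the pathway had 3 of 6 (50%), with TNIP1, a partner of A20, at 923 bp, the deubiquitinase OTULIN at 596 bp and the deubiquitinase CYLD at 381 bp. TNIP1 and OTULIN had a HIF1α peak in control cells as well, and so had TRAF6 (374 bp) and TRAF2 (223 bp) among the adaptors. In the IκB family, 3 of 5 (60.0%) had a HIF1α peak with iAs, namely NFKBIZ (555 bp), NFKBIE (491 bp) and NFKBIB (264 bp). NFKBIB also had one in control cells (252 bp), which its peaks with iAs did not overlap. Among the 3 other subunits, REL had several with iAs, the widest of 392 bp, and NFKB2 had one in control cells only (281 bp).

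**Figure D4:**
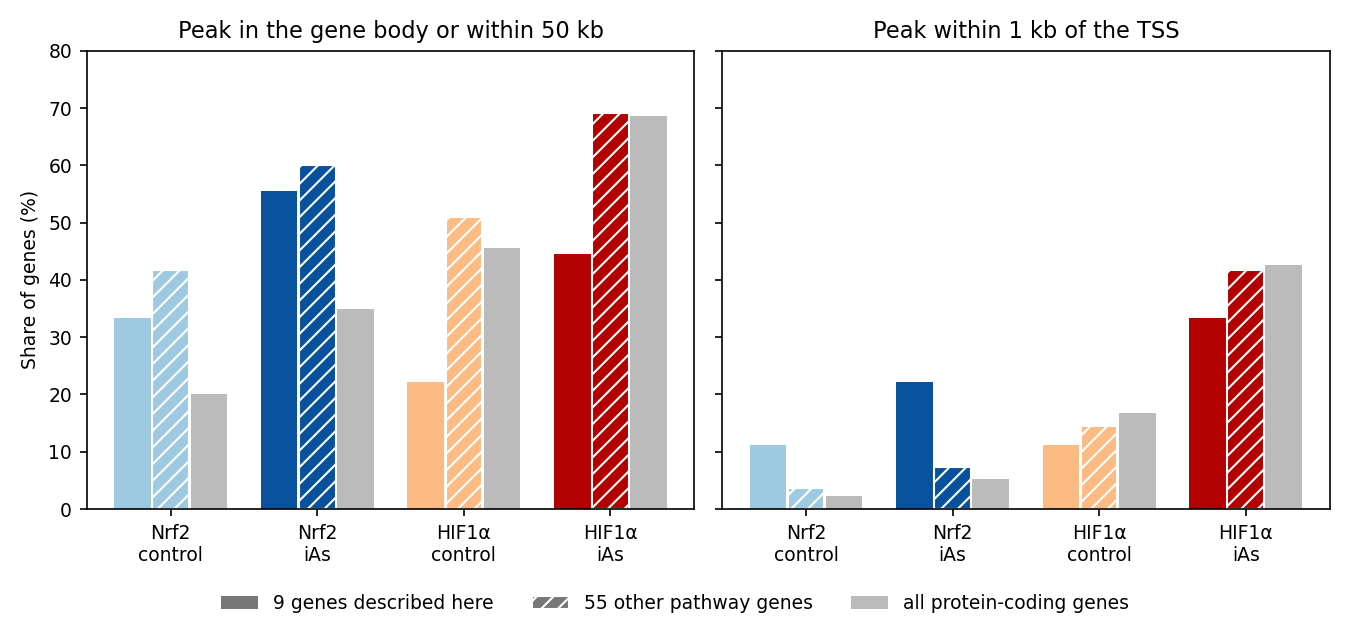
Share of genes in percent with a peak in the gene body or within 50 kb (left) and within 1 kb of the TSS (right), by library. Solid bars are the 9 genes described here, hatched bars the 55 other genes of the pathway and grey bars all 20163 protein-coding genes. For Nrf2 within 50 kb both gene groups exceed the grey bars of 20.0% and 35.0%, and for HIF1α with iAs the 9 genes lie below the grey bar of 68.6%.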

How the data were processed

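ChIP-seq was performed on BEAS-2B cells with antibodies against Nrf2 and HIF1α. Per the labels, BWA and MACS2 2.1.0 were used on hg19, whereas the methods name MACS or SICER without saying which made a list. Tag numbers were equalized within a group by down-sampling, and the authors merged overlapping peaks of the libraries. They deposited the start and end positions of the intervals, with no count or height. The input DNA library was not analysed here.

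Starts were changed from 0-based to 1-based. Genes came from GENCODE release 44 lifted to GRCh37, with the TSS of the canonical transcript, and sequences from GRCh37, whose chromosomes contain all peaks. An overlap of 1 bp or more made peaks shared. Python 3.11.15, NumPy 2.4.6, SciPy 1.17.1 and matplotlib 3.10.9 were used. Window counting, peak overlap and the motif search were tested on simulated data, and the other steps were not. All 9 genes were described in full, and of the 55 others up to 3 per group with the widest peak within 1 kb of the TSS. IKBKG was also named, for its overlapping peaks. The genes, lists and motifs were chosen with earlier results of these data known. With 1 library per condition, no test between conditions was made.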

Additional observations from a re-analysis of the deposited data

How the results depend on the processing

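No paired analysis was possible because each antibody and condition has 1 library and no result comes from a test. Of 98 alternative values for the 9 genes, 69 stayed within 1.5 times the reported one. With 10 kb in place of 50 kb around the gene, Nrf2 peaks numbered 1 in control cells (1 gene) and 4 with iAs (3 genes), and HIF1α control peaks 2. With 100 kb, there were 5 Nrf2 control peaks (5 genes), 7 HIF1α control peaks and 18 with iAs, of which 12 overlapped no control peak. In the wider 50% of each list, HIF1α had 2 control peaks (1 gene) and 1 with iAs (1 gene), which left 0 found with iAs only. With equal numbers of the widest peaks, Nrf2 with iAs had 3 peaks (3 genes) and HIF1α with iAs 1 (1 gene), and 0 were found with iAs only for either factor. Merging intervals less than 500 bp apart left 4 HIF1α and 3 Nrf2 peaks found with iAs only. For Nrf2, the 2 peaks at IL6 became 1. Counting only peaks nearest to the TSS of one of the 9 genes, chosen after seeing the data, gave 2 HIF1α control peaks, 6 with iAs and 4 with iAs only. Searching the whole peak instead of the 201 bp around the centre raised the Nrf2 peaks with iAs with an AP-1 site from 1 to 4, with an ARE core from 1 to 2 and with an HRE core from 1 to 2, and the HIF1α peaks with iAs with an HRE core from 3 to 6. Over all peaks with iAs, the whole-peak shares were 51.5%, 44.2% and 42.4% for these Nrf2 motifs, and 71.6% for the HRE core in HIF1α peaks. Of the 55 other pathway genes, 12 and 20 had an Nrf2 peak (control and iAs) and 16 a HIF1α control peak within 10 kb, and in the wider 50% of each list 13 had an Nrf2 and 18 a HIF1α control peak. The share of all genes is not given at these settings. The counts therefore do not show whether the Nrf2 share of the list stayed above that of all genes. The overlap of Nrf2 and HIF1α peaks with iAs was 0 under every alternative run, each of which held few Nrf2 peaks. The depth behind a peak is unknown, so the absence of a call is no evidence that a factor was absent.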

Other observations

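Outside the windows, the nearest peaks lay far from several of the genes. Upstream of NFKB1, Nrf2 peaks were called at -71.7 kb from the TSS in control cells (189 bp) and at -61.6 kb with iAs (799 bp), at different positions, and NFKB1 is the protein-coding gene with the nearest TSS to both. Upstream of TNFAIP3, the nearest Nrf2 peak lay at -186 kb in control cells (350 bp) and at -138 kb with iAs (217 bp). For IL6, the nearest HIF1α peaks were at -149 kb in control cells and 127 kb with iAs, where the nearest TSS was that of TOMM7. The nearest HIF1α peak of PTGS2 in iAs-treated cells lay closest to the TSS of ODR4.

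Within 50 kb of LIF, which encodes a cytokine of the interleukin 6 family, 3 HIF1α peaks were called in control cells and 0 with iAs, while Nrf2 had 1 peak in control cells and 4 with iAs. CSF2, which encodes the growth factor GM-CSF, had 2 and 4 Nrf2 peaks and no HIF1α peak. IL1R1, the receptor for both interleukins 1, had 1 Nrf2 peak in control cells, 5 with iAs and no HIF1α peak. Within 50 kb of TRAF2, an adaptor of the tumor necrosis factor receptor, 3 HIF1α peaks were called in control cells and 12 after iAs. These 4 genes were picked after their values were seen. All their counts cover the gene body and 50 kb on each side, and a peak so counted may lie nearest to another gene.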
